A study of Mus musculus with 6 samples.

Results

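The complement genes *C3*, *C4b*, *C1s1*, *C1ra*, and *Serping1* were followed in single cells of the tibialis anterior muscle (TAM). They were chosen by name, as complement components and a regulator known to be made by stromal cells, with earlier results of these data known. All 5 were found among the 12436 genes of the deposited tables. The cells came from male *Pax7*-Fucci mice 3 to 5 months old that, in every group, were negative for Cre. That line was bred from *Pax7*-Cre mice and a B6;129 strain with the Fucci2aR cell cycle reporter at Gt(ROSA)26Sor. Hypothyroid mice ate a low-iodine diet with 0.15% propylthiouracil (PTU, a blocker of thyroid hormone synthesis), and control mice ate a matched diet. For each diet there was 1 library of uninjured TAM (day 0), 1 at 5 days after injury (dpi), and 1 at 14 dpi, where injury was an injection of cardiotoxin (CTX, 50 μg/ml) into the right muscle. Each library pooled 3 mice, so there were no replicates, no difference between conditions was tested, and every interval given is a 95% interval of counting error only.

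Complement is a cascade of plasma proteins that marks particles and damaged cells for uptake and draws in leukocytes. The classical arm starts when C1q binds its target and activates the proteases C1r and C1s, which cleave C4 and C2 to form an enzyme that cleaves C3. C3 is the point where all arms meet, and its fragments label surfaces and signal to cells through receptors. Serping1, the C1 inhibitor, blocks C1r and C1s and also acts on the contact system. The liver makes most of the plasma proteins, and connective tissue cells make components locally. In muscle the main such cell is the fibro-adipogenic progenitor (FAP), a *Pdgfra*-positive stromal cell that lays down matrix after injury and supports muscle stem cells.

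In the coordinates of the deposited tables (mm39), *C1ra* lies at chr6:124489364-124500403 and *C1s1* beside it at chr6:124507304-124519319. *C3* lies at chr17:57510970-57535137, *C4b* on the same chromosome at chr17:34947354-34962857, and *Serping1* at chr2:84595731-84605789. All 5 are protein-coding, and in the GENCODE vM39 annotation of that build *C1ra* is on the plus strand and the other 4 on the minus strand. *C4b*, *C1ra*, and *C1s1* each have a near-identical copy in the mouse genome (*C4a*, *C1rb*, and *C1s2*), so reads shared with the copy make their levels uncertain. The copies were not analysed here. RefSeq promoter sequences in GRCm38.p6, from 250 bases before to 50 bases after a transcription start, matched 3 of the 5 genes, at 4 starts. They are shown because a sequence was available for these 3 genes only, and none was for *C4b* or *Serping1*. Capitals mark matches, on either strand, to any of 5 short motifs of regulators known for complement genes or for thyroid hormone. The *C3* window is chr17:57228087-57228386 (minus strand), that of the 1st *C1s1* start is chr6:124542310-124542609 (minus strand), and that of *C1ra* is chr6:124512371-124512670 (plus strand).
C3: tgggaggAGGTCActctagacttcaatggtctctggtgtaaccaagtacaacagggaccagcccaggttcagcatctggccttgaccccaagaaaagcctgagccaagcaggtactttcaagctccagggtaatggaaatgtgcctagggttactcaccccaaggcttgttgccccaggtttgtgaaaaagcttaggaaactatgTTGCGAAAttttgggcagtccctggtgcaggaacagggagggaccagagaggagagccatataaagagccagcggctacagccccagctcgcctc
C1s1: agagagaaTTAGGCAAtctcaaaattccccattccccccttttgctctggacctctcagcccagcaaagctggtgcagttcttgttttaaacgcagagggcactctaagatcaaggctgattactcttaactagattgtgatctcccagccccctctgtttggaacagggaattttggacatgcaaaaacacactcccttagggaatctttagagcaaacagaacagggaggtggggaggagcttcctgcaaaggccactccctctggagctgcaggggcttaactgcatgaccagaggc
C1ra: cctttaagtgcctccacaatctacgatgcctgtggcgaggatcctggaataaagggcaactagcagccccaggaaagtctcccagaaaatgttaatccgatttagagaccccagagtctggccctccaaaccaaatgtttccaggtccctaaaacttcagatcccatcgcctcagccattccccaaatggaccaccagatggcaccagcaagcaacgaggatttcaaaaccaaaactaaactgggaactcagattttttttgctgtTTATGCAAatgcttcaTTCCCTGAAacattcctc

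The motif TTGCNNAA, of C/EBP factors, matched in all 3 of these windows, and 10.8% of 32851 promoters of the same length held it. The nuclear receptor half-site AGGTCA, which thyroid hormone receptors also use, matched in the *C3* window alone, 243 bases before the start, and 16.3% of all promoters held it. TTCNNNGAA, of STAT factors, matched in the *C1ra* window 33 bases into the transcript, against 8.3% of all promoters. The interferon-stimulated response element (3.44% of all promoters) and the NF-κB motif (1.2%) matched in none of the 4. The window of the 2nd *C1s1* start held none of the 5 motifs. A match describes letters only, and no binding was measured.

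The deposited tables hold 20269 cell columns in runs of alphabetically ordered barcodes. Only the first run of each table was used, 11207 cells with 2283739 to 23496489 UMIs (unique molecular identifiers, each counting 1 captured RNA molecule) in a library. The later 9062 columns are of no known condition under their own label, and 1680 of them carry barcodes of a first run in the table of another condition. Pairs of first runs shared at most 3 barcodes. Whether each first run is of its labelled condition could not be checked from barcodes, and all comparisons take that as given. Cells were gated on lists of 8 marker genes that hold no complement gene, and 5346 of the 11207 were FAP-like. There were 837 (control) and 330 (hypothyroid) FAP-gated cells in uninjured TAM, 466 and 917 at 5 dpi, and 1861 and 935 at 14 dpi. All 8 FAP markers were present in each of these groups, and at least 1 tendon gene, *Tnmd* or *Scx*, was seen in 19 to 280 of their cells. Levels are CPM, the UMIs of a gene in the pooled cells scaled to counts per 1000000 UMIs, and since the kit reads 3′ ends they are not divided by gene length. Free RNA of muscle fibers was present too: the 8 myocyte genes summed to 211 to 10150 CPM in the FAP-gated cells of the 6 libraries.

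Most UMIs of the 5 genes lay in FAP-gated cells. FAP-gated cells held 60.3% of all UMIs, but 98.1% of those of *C3*, 96.3% of *C4b*, 95.4% of *C1s1*, 97.6% of *C1ra*, and 96.8% of *Serping1*. In single libraries the share ran from 92.4% (*C1s1*, control 14 dpi) to 100% (*C4b*, both uninjured libraries). Since cells differ in depth, each was also thinned to 2000 UMIs. After thinning, *Serping1* was seen in 62.5% to 90.1% of FAP-gated cells and *C4b* in 3.2% to 16.3%. T/NK-gated cells, which should lack these genes, gave 0% to 4.35% for *Serping1* and 0% for *C4b*. Their median depth was 2487 to 3808 UMIs where at least 20 were gated, against 4350 to 13758 in FAP-gated cells.

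**Figure D1:**
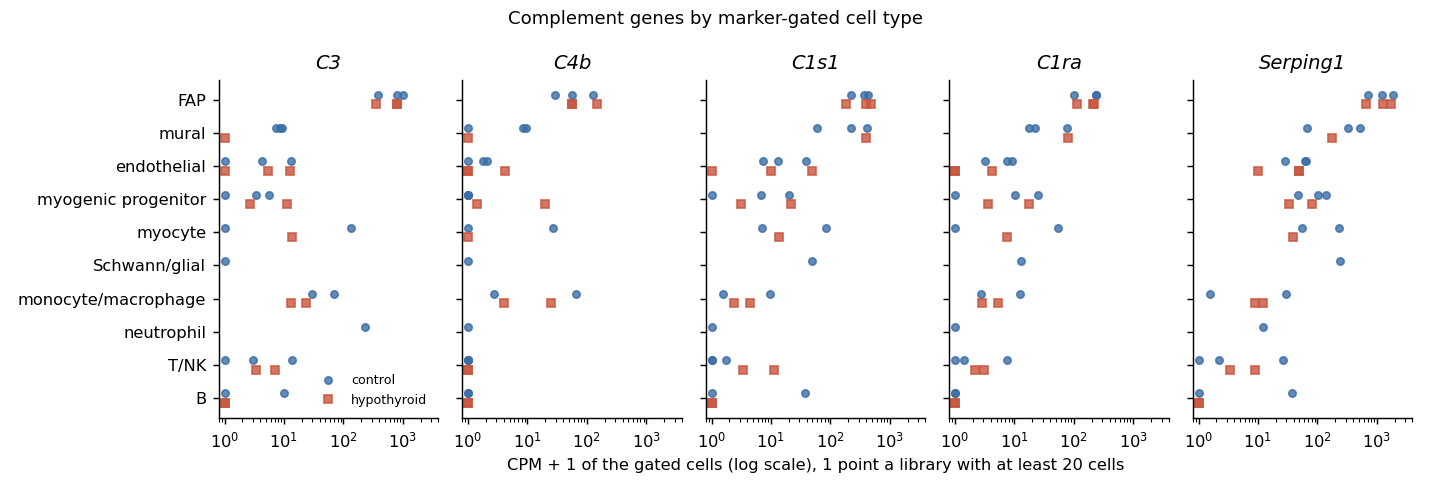
Level of each gene (CPM + 1, log axis) in 10 marker-gated cell types, with 1 point for each library that has at least 20 cells of the type, control as circles and hypothyroid as squares. For *C3*, *C1ra*, and *Serping1* the FAP-gated points lie right of all others. For *C1s1* 3 mural points (222 to 413 CPM) lie within the FAP range of 179 to 477 CPM, and for *C4b* 1 monocyte/macrophage point (65.3 CPM) lies within that of 28.6 to 149 CPM. In the control 5 dpi library the mural *C1s1* point (413 CPM) lies right of the FAP-gated one (219 CPM).

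*Serping1*, the inhibitor, was 1913 and 1774 CPM in uninjured FAP-gated cells of control and hypothyroid mice. It was 709 and 652 CPM at 5 dpi, and 1237 and 1254 CPM at 14 dpi. The 3 days did not overlap in level in either diet, with 5 dpi the lowest and 14 dpi between.

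*C3*, the central component, was 995 and 807 CPM in uninjured control and hypothyroid cells, 389 and 359 CPM at 5 dpi, and 796 and 785 CPM at 14 dpi. At 14 dpi the control level was below its uninjured level, and the hypothyroid level was close to it.

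*C1s1*, which encodes the protease C1s, was 374 and 477 CPM in uninjured cells, 219 and 179 CPM at 5 dpi, and 435 and 399 CPM at 14 dpi. *C1ra*, which encodes its partner C1r, was 233 and 212 CPM, then 101 and 113 CPM, then 234 and 216 CPM. Both proteases were thus lowest at 5 dpi in each diet and near their uninjured level at 14 dpi.

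*C4b*, the substrate of C1s, had another course. In uninjured cells it was 28.6 CPM in control (139 UMIs in 50 cells) and 54.6 CPM in hypothyroid mice (90 UMIs in 26 cells). It was 56.2 and 54.8 CPM at 5 dpi, and 124 and 149 CPM at 14 dpi. It was highest at 14 dpi in both diets, and at 5 dpi it was not below the uninjured level in either.

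**Figure D2:**
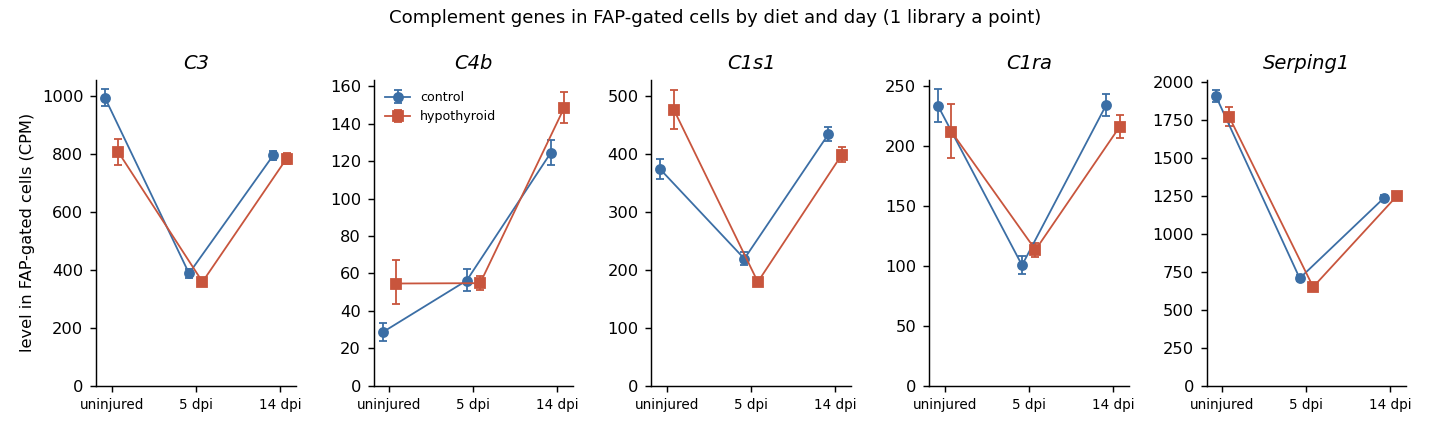
Level (CPM, linear axis from 0) of the 5 genes in FAP-gated cells by day, control as circles and hypothyroid as squares, with exact Poisson 95% intervals that cover counting error only. *C3*, *C1s1*, *C1ra*, and *Serping1* are lowest at 5 dpi in both diets, and *C4b* is highest at 14 dpi.

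To see how the genes moved after injury, levels at 5 dpi were divided by uninjured levels of the same diet. In control mice the ratio was 0.371 (0.358 to 0.384) for *Serping1*, 0.391 (0.372 to 0.410) for *C3*, 0.431 (0.390 to 0.474) for *C1ra*, and 0.587 (0.547 to 0.630) for *C1s1*. Of the 5 genes 3 were at least 2-fold lower, against 11.3% of the 7101 genes that had 100 or more UMIs in the richer of the compared pools. In hypothyroid mice it was 0.367 (0.352 to 0.383) for *Serping1*, 0.376 (0.347 to 0.408) for *C1s1*, 0.445 (0.419 to 0.473) for *C3*, and 0.535 (0.476 to 0.603) for *C1ra*. Again 3 of 5 were at least 2-fold lower, against 16.7% of 8127 genes. *C4b* was the exception, at 1.97 (1.61 to 2.41) in control and 1.003 (0.805 to 1.26) in hypothyroid mice. With thinned cells this ratio was 2.14 and 2.12, and as a mean over cells of log2(CPM + 1) it was 2.94 and 2.72. With all columns of each table it was 0.926 and 1.14. The summed level of the 5 was 0.416 (0.406 to 0.426) and 0.409 (0.397 to 0.421) of the uninjured level. With all columns of each table, the later runs included, it was 0.696 and 0.613, and as a mean over cells of log2(CPM + 1) it was 0.203 and 0.376.

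From 5 to 14 dpi all 5 genes were higher. In control mice the ratio was 2.05 for *C3*, 2.21 for *C4b*, 1.98 for *C1s1*, 2.33 for *C1ra*, and 1.75 for *Serping1*, so that 3 of 5 were at least 2-fold higher, against 8.65% of 8204 genes. In hypothyroid mice the ratios were 2.19, 2.71, 2.23, 1.91, and 1.92 in the same order, again with 3 of 5 past 2-fold, against 11.5% of 8340 genes. The summed level was 1.92-fold (1.87 to 1.96) and 2.06-fold (2.02 to 2.10) higher. These ratios share the 5 dpi libraries with those from uninjured to 5 dpi.

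To compare the diets, hypothyroid levels were divided by control levels of the same day. No member was at least 2-fold different in FAP-gated cells on any day, while 3.07% of 5481 genes were in uninjured TAM, 8.79% of 8172 at 5 dpi, and 5.01% of 7939 at 14 dpi. The summed level was 0.938 (0.910 to 0.967), 0.922 (0.899 to 0.945), and 0.992 (0.975 to 1.01) of control on the 3 days. At 5 dpi the median gene stood at a ratio of 0.819 (-0.288 on the log2 scale), and divided by it the summed ratio was 1.13, on the other side of 1. Averaged over single cells on the log2(CPM + 1) scale, in place of pooling UMIs, hypothyroid cells were higher, at 1.62 at 5 dpi and 1.57 at 14 dpi. In uninjured TAM they were lower on that scale. The median depth of control and hypothyroid FAP-gated cells was 12192 and 13758 UMIs at 5 dpi and 5403 and 9323 at 14 dpi. The part of depth in the log-scale ratios was not tested. After thinning to 2000 UMIs the pooled ratios were 0.938 and 1.05.

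*C4b* had the largest of these ratios, 1.91 (1.45 to 2.51) in uninjured cells, where 1.15% of genes had a higher one. It rested on 76 cells in all, with up to 18 UMIs in 1 control cell and 19 in 1 hypothyroid cell. It was 1.24 with thinned cells, 1.15 on the mean log scale, and 0.489 with all columns of each table. It passed 2-fold with the smallest value of a cell as 1 UMI (2.22) and without the 1% of cells highest in the summed level (2.14). At 5 dpi it was 0.975 (0.859 to 1.11) and at 14 dpi 1.19 (1.11 to 1.29).

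For *C3* the hypothyroid level was 0.811 (0.763 to 0.862) of control in uninjured cells, 0.924 (0.881 to 0.970) at 5 dpi, and 0.986 (0.956 to 1.02) at 14 dpi. *Serping1* stayed between 0.919 and 1.01. *C1s1* was 1.28 (1.17 to 1.39) in uninjured cells and then 0.818 (0.766 to 0.874) and 0.919 (0.879 to 0.960). *C1ra* was 0.908 (0.803 to 1.02), 1.13 (1.03 to 1.24), and 0.922 (0.869 to 0.979). With no second library the spread between mice is not known, so no such difference can be set against it.

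**Figure D3:**
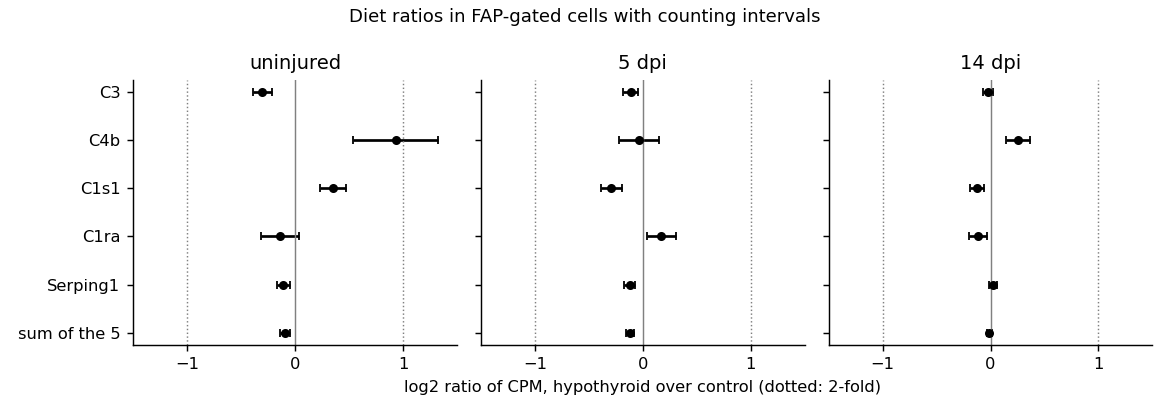
Log2 ratio of CPM in FAP-gated cells, hypothyroid over control, for each gene and for their sum on each day, with 95% intervals of counting error and dotted lines at 2-fold. All points lie within the dotted lines, and *C4b* in uninjured TAM, at 0.93, is nearest to one.

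FAP-gated cells are a mix of states, and the mix changed with the day. Cells were split by 4 genes each into a Pi16 state (*Pi16*, *Dpp4*, *Cd55*, and *Sema3c*), a Smoc2 state (*Smoc2*, *Cxcl14*, *Col15a1*, and *Hsd11b1*), an injury matrix state (*Cthrc1*, *Tnc*, *Lrrc15*, and *Postn*), and cycling cells (*Mki67*, *Top2a*, *Cdk1*, and *Birc5*). States are ranges of a score, and 5.45% to 15.7% of FAP-gated cells of a library lay near a border. The Pi16 state held 41.6% of control and 41.5% of hypothyroid cells in uninjured TAM, 18.7% and 12.1% at 5 dpi, and 43.9% and 42.6% at 14 dpi. The Smoc2 state held 46.95% and 48.5%, then 6.44% and 6.87%, then 29.6% and 21.0%. At 5 dpi the matrix state held 35.2% of control and 48.4% of hypothyroid cells, and cycling cells 28.3% and 20.3%. Cells that fell in no state were 9.92% (uninjured control) to 23.6% (hypothyroid 14 dpi) of FAP-gated cells and are not shown by state.

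*C3* was highest in the Pi16 state. It stood there at 1410 and 1156 CPM in uninjured control and hypothyroid cells, against 448 and 316 CPM in the Smoc2 state. At 5 dpi it was 853 and 1069 CPM in the Pi16 state, 542 and 860 CPM in the Smoc2 state, 313 and 264 CPM in cycling cells, and 203 and 245 CPM in the matrix state. At 14 dpi it was 1197 and 1424 CPM in the Pi16 state, 419 and 380 CPM in the Smoc2 state, and 109 and 146 CPM in the matrix state. The Pi16 state was highest in all 6 libraries, from 1.24-fold (1.11 to 1.39, hypothyroid 5 dpi) to 3.75-fold (3.45 to 4.08, hypothyroid 14 dpi) over the Smoc2 state.

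*C4b* did not keep 1 order of states. In uninjured control cells it was lower in the Pi16 state (15.9 CPM, 41 UMIs) than in the Smoc2 state (45.2 CPM, 81 UMIs), a ratio of 0.351 (0.235 to 0.516). In hypothyroid cells the ratio was 0.710 (0.426 to 1.18), from 33 and 34 UMIs. At 5 dpi it was 215 and 284 CPM in the Pi16 state of control and hypothyroid mice, and at 14 dpi 174 and 227 CPM. In the Smoc2 state it was 18.1 CPM (4 UMIs) and 90.9 CPM (48 UMIs) at 5 dpi and 79.9 and 129 CPM at 14 dpi, so the Pi16 state was 2.18-fold (1.87 to 2.55) and 1.76-fold (1.51 to 2.05) higher at 14 dpi. In matrix and cycling cells it stayed between 26.1 and 33.6 CPM.

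*C1s1* was higher in the Smoc2 than in the Pi16 state of uninjured cells, at 491 against 314 CPM in control and 554 against 444 CPM in hypothyroid mice. At 5 dpi it was 542 against 426 CPM and 385 against 395 CPM, and at 14 dpi 628 against 409 CPM and 456 against 440 CPM. The Pi16 over Smoc2 ratio was 0.640 to 0.786 in the 3 control libraries and 0.801 (0.691 to 0.929), 1.03 (0.862 to 1.23), and 0.965 (0.885 to 1.05) in the hypothyroid ones by day. *C1ra* was 171 to 267 CPM in the Pi16 state and 184 to 284 CPM in the Smoc2 state. *Serping1* was 1340 to 2065 CPM in the Pi16 state and 1227 to 1739 CPM in the Smoc2 state.

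The matrix and cycling states were the low ones. The summed level of the 5 genes was 3074 and 3495 CPM in Pi16 cells of control and hypothyroid mice at 5 dpi and 2753 and 2746 CPM in Smoc2 cells. It was 996 and 1075 CPM in matrix cells and 1081 and 981 CPM in cycling cells. With Pi16 and Smoc2 cells given equal weight, and the other cells left out, the summed level at 5 dpi was 0.830 of the uninjured level in control and 0.965 in hypothyroid mice, in place of 0.416 and 0.409. From 5 to 14 dpi it was 1.07 and 1.01, in place of 1.92 and 2.06. It rested on 87 and 30 control and 111 and 63 hypothyroid cells at 5 dpi. By that measure *C3* in hypothyroid mice was 1.31 times its uninjured level, and *C4b* 3.81 times in control and 4.04 times in hypothyroid mice.

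Within states the diets were compared by the summed level first. In Pi16 cells the summed level was 0.962 (0.925 to 1.001) of control in uninjured TAM, 1.14 (1.08 to 1.20) at 5 dpi, and 1.12 (1.09 to 1.14) at 14 dpi. In Smoc2 cells it was 0.867 (0.820 to 0.917), 0.998 (0.907 to 1.10), and 0.881 (0.848 to 0.915). For the summed level the matrix cells at 14 dpi were farthest from 1, with 828 and 1364 CPM for control and hypothyroid mice, a ratio of 1.65 (1.53 to 1.78) over 181 and 119 cells. *Serping1* was 439 and 803 CPM there, a ratio of 1.83 (1.65 to 2.03). The median depth of these cells was 5556 UMIs in control and 11256 in hypothyroid mice, and its part in the ratio was not tested. Of single genes, *C4b* had larger ratios from few UMIs, 2.43 (1.49 to 3.94) in uninjured Pi16 cells. In uninjured cells of no state it was 139 CPM (23 UMIs) in hypothyroid and 40.1 CPM (17 UMIs) in control mice, a ratio of 3.47 (1.775 to 6.92). In Smoc2 cells at 5 dpi the *C4b* ratio was 5.04 (1.84 to 19.2), where control had 4 UMIs. *C3* was 1.59 (1.30 to 1.96) in those Smoc2 cells.

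**Figure D4:**
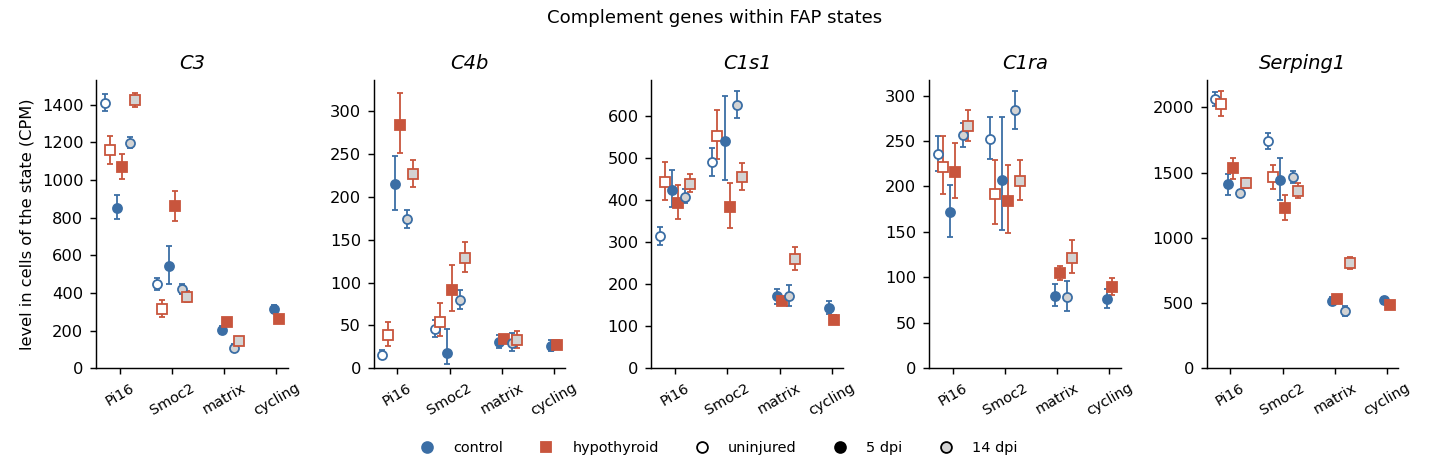
Level (CPM, linear axis from 0) of the 5 genes within FAP states, control as circles and hypothyroid as squares, open for uninjured, filled for 5 dpi, and grey for 14 dpi, with 95% intervals of counting error. *C3* is highest in the Pi16 state in every library, *C4b* is highest there at 5 and 14 dpi, and for every gene but *C4b* matrix and cycling points lie below the Pi16 and Smoc2 points of the same library.

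Within a library the genes were spread unevenly over FAP-gated cells. The 10% of cells with most UMIs of a gene held 46.5% to 60% of *C3*, 27.4% to 36.3% of *C1s1*, and 28.7% to 38.6% of *Serping1*. For *C4b* it was 69.0% to 79.8% after injury and 100% in both uninjured libraries. Of cells thinned to 2000 UMIs, 4.13% (control) and 4.83% (hypothyroid) showed none of the 5 genes in uninjured TAM, 25.2% and 22.5% at 5 dpi, and 9.1% and 6.99% at 14 dpi. Cells with all 5 were 0.8% and 1.38%, then 2.36% and 2.03%, then 3.93% and 4.93%.

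Mural cells, the pericytes and smooth muscle of vessels, held part of the set. *C1s1* was 58.0 CPM (7 UMIs in 20 cells) in uninjured, 413 CPM (55 UMIs in 25 cells) in 5 dpi, and 222 CPM (106 UMIs in 128 cells) in 14 dpi control mice, and 391 CPM (20 UMIs in 27 cells) in hypothyroid mice at 14 dpi. *Serping1* was 66.3, 518, 326, and 176 CPM in the same libraries. *C3* and *C4b* were at most 8.36 CPM there. Against FAP-gated cells of the same library, mural *C1s1* was 15.5% (6.23 to 32.0), 188% (141 to 246), 51.0% (41.7 to 61.8), and 98.0% (59.8 to 152) in that order. So at 5 dpi in control mice it was above the FAP level. The FAP marker *Dcn*, which codes for decorin, gave 8 UMIs in the 5 dpi mural cells, against 19891 in FAP-gated cells of that library. Per 100 *Dcn* UMIs, these mural cells held 688 UMIs of *C1s1*, against 7.18 in FAP-gated cells. Uninjured mural cells also gave 8 *Dcn* UMIs, so *Dcn* did not follow the sum of FAP markers given below. The count per *Dcn* UMI thus does not account for the other FAP markers. The 5 dpi level in control mural cells was 7.12 times (3.24 to 18.5) the uninjured one for *C1s1* and 7.82 times (3.75 to 18.8) for *Serping1*, while in FAP-gated cells both ratios were below 1. The 8 FAP markers, of which 2 were at 0 in each pool, also summed higher in the 5 dpi mural cells, at 4212 CPM against 630 CPM in uninjured ones, and their part in these ratios was not tested. At 14 dpi they summed to 1488 and 822 CPM in mural cells of control and hypothyroid mice.

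*C3* and *C4b* were also seen in some leukocytes, in few cells. The 29 neutrophil-gated cells, of control mice at 5 dpi, had 21 *C3* UMIs in 10 cells (233 CPM, 145 to 357) and no UMI of *C4b*, *C1s1*, or *C1ra*. Their *C3* was 60.1% (37.1 to 92.0) of the FAP level of that library. Monocyte/macrophage-gated cells had *C3* at 29.0 and 22.2 CPM in control and hypothyroid mice at 5 dpi and at 68.1 and 12.1 CPM at 14 dpi. Their *C4b* was 1.74 and 3.06 CPM at 5 dpi and 65.3 CPM (23 UMIs in 8 of 84 cells) and 24.2 CPM (28 UMIs in 15 of 129 cells) at 14 dpi. In control mice at 14 dpi the *C4b* level was 52.5% (33.2 to 79.1) of the FAP level and in hypothyroid mice 16.3% (10.8 to 23.7). Hypothyroid over control, the summed level of the 5 genes in these cells at 5 dpi was 1.18 (0.878 to 1.61). *C3* was at 0.767 (0.544 to 1.09) and *Serping1* at 19.3 (3.33 to 778), from 55 UMIs against 1. The 8 FAP markers summed to 242 CPM (1 of them at 0) in control and 385 CPM in hypothyroid mice there, and their part was not tested. At 14 dpi the summed level was 0.286 (0.198 to 0.413), with *C3* at 0.178 (0.0850 to 0.358), *C4b* at 0.371 (0.206 to 0.674), and *Serping1* at 0.274 (0.0986 to 0.751). No member had over 28 UMIs in either 14 dpi pool, too few for the comparison with all genes. The 8 myocyte genes, all present, summed to 11290 CPM in the control and 2672 CPM in the hypothyroid pool, and the 8 FAP markers, all present, to 574 and 302 CPM, and their part in these ratios was not tested. T/NK-gated cells of control mice at 5 dpi had 5 *C3* UMIs in 622 cells.

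Endothelial cells held *Serping1* at 8.92 to 63.8 CPM and *C1s1* at 0 to 48.9 CPM. Myogenic progenitors, the muscle stem cell lineage, held *Serping1* at 32.7 to 141 CPM and *C3* at no more than 10.5 CPM. The highest of these *Serping1* levels, in control mice at 14 dpi, came with 21120 CPM of the 8 FAP markers (7 present), against 3093 CPM of their own list, and with 5.01 *Serping1* UMIs per 100 of *Dcn*. In the other 4 libraries with at least 20 such cells the FAP markers summed to 1280 to 5073 CPM. Myocyte-gated cells of control mice at 14 dpi had all 5 genes, *Serping1* at 229 CPM and *C3* at 134 CPM. Per 100 *Dcn* UMIs these cells had 7.07 of *C3*, 4.39 of *C1s1*, and 12.1 of *Serping1*, close to 8.59, 4.69, and 13.3 in FAP-gated cells of the library.

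Of 52 genes of the cascade that were looked for, 28 were in the tables, and 23 of these were not members. Among the non-members with at least 100 UMIs in FAP-gated cells, 5 of 8 were at least 2-fold lower and 1 was higher at 5 dpi than in uninjured control mice, against 11.3% and 18.3% of all genes. In hypothyroid mice 3 of 12 were lower and 5 were higher, against 16.7% and 17.5%. Their median log2 ratio was -1.62 in control and -0.41 in hypothyroid mice, where that of all genes was 0.11 and -0.11. These medians are of 8 and 12 genes, not the same set, so they do not compare the diets. A gene could also enter a set through the pool where it was high alone. From 5 to 14 dpi 6 of 10 were at least 2-fold higher and none lower in control mice (8.65% and 11.6% of all genes), and 5 of 12 higher and 3 lower in hypothyroid mice (11.5% and 12.9%). *C7*, a part of the membrane attack complex, was 98.0 and 68.6 CPM in uninjured control and hypothyroid cells, 3.38 and 1.10 CPM at 5 dpi, and 17.9 and 7.90 CPM at 14 dpi. *Cd55*, which speeds decay of the C3-cleaving enzymes on cell surfaces, was 301 and 313 CPM, then 96.5 and 77.8 CPM, then 277 and 191 CPM. Vitronectin (*Vtn*) and clusterin (*Clu*), inhibitors of the terminal complex, were at 0.225 and 0.331 of the uninjured level in control mice at 5 dpi, and at 0.208 and 0.752 in hypothyroid mice.

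Factor B (*Cfb*), the protease partner of C3 in the alternative arm, went the other way. It was 6.18 and 6.07 CPM in uninjured control and hypothyroid cells, 70.1 and 20.4 CPM at 5 dpi, and 36.5 and 33.1 CPM at 14 dpi. The 5 dpi level was 11.4 times the uninjured one in control and 3.37 times in hypothyroid mice, and the hypothyroid level at 5 dpi was 0.292 (0.2502 to 0.339) of control. By diet, 3 of 11 non-members were at least 2-fold higher and 1 lower in hypothyroid mice at 5 dpi, against 2.42% and 6.36% of all genes. In uninjured TAM 0 of 7 were higher and 1 lower (0.930% and 2.13% of all genes), and at 14 dpi 2 of 12 were higher and 2 lower (0.857% and 4.16%). Their median log2 ratio was -0.44 in uninjured TAM, 0.03 at 5 dpi, and -0.13 at 14 dpi, where that of all genes was -0.05, -0.29, and -0.08. These are medians of 7, 11, and 12 genes, not the same set. Here too a gene could enter through the diet where it was high alone. *Clu* was 0.421 and 0.480 of control in uninjured and 14 dpi hypothyroid cells, and *C7* 0.440 at 14 dpi.

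The 3 genes higher at 5 dpi were *C1qa*, *C1qb*, and *C1qc*, the chains of C1q. A gene needed 100 UMIs in the richer pool only, and *C1qa* and *C1qb* reached that in the hypothyroid pool alone. Their entry to the count thus rested on the diet where they were high, and the count is no evidence on them. *C1qa* was 8.30 and 44.9 CPM in FAP-gated cells of control and hypothyroid mice, and *C1qb* 6.45 and 62.3 CPM. All 8 monocyte/macrophage markers were present in the same cells and summed to 68.1 and 238 CPM, and their part in the difference was not tested. In monocyte/macrophage-gated cells *C1qa* was 1120 and 2751 CPM at 5 dpi. The receptor for the C3 fragment C3a (*C3ar1*) was 130 and 247 CPM and that for C5a (*C5ar1*) 65.5 and 106 CPM there. In FAP-gated cells these receptors were at most 5.66 and 2.50 CPM in any library. *C2*, which is cleaved beside C4, was 5.46 to 17.7 CPM in FAP-gated cells.

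**Figure D5:**
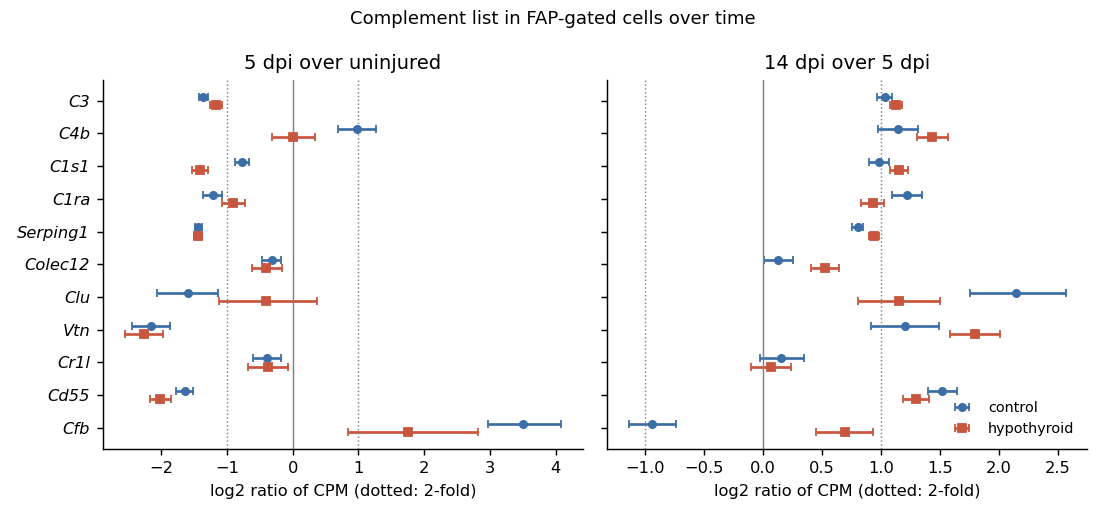
Log2 ratio of CPM in FAP-gated cells for 11 complement genes with at least 100 UMIs in all 4 comparisons over time, 5 of them the genes followed here, control as circles and hypothyroid as squares, with 95% intervals of counting error and dotted lines at 2-fold. All but *C4b* and *Cfb* lie left of 0 from uninjured to 5 dpi and right of 0 from 5 to 14 dpi in both diets, and *Cfb* lies right of 0 from uninjured to 5 dpi.

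A second list held 19 factors and receptors known to control complement genes. From uninjured to 5 dpi, 4 of 18 were at least 2-fold lower and 3 higher in control mice, and 7 of 19 lower and 2 higher in hypothyroid mice, with median log2 ratios of -0.17 and -0.65. Of all genes 11.3% were lower and 18.3% higher in control mice and 16.7% and 17.5% in hypothyroid mice, with medians of 0.11 and -0.11. The receptor for IL-6, *Il6ra*, was 94.5 and 98.9 CPM in uninjured control and hypothyroid FAP-gated cells and 16.9 and 6.76 CPM at 5 dpi. *Cebpd*, a C/EBP factor, was 676 and 1107 CPM, then 285 and 200 CPM. These 2 examples were picked after their values were seen and are both among the lower genes. The higher genes of the list are not named here. By diet 2 of 19 were at least 2-fold different at 5 dpi, a share near the 8.79% of all genes. They were *Il6ra* (0.400) and the interferon receptor *Ifnar1* (0.496), both lower, and the median log2 ratio of the list was -0.50 against -0.29 for all genes. The count was 0 of 15 in uninjured TAM and 0 of 19 at 14 dpi.

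To describe which genes followed the members, log2(CPM + 1) was compared across 26 groups of cell type and library with at least 50 cells, over 11518 genes. The genes most like *C3* were *Pdgfra* (r = 0.926), *Ptgs2* (0.899), and *Wnt2* (0.898), of which *Pdgfra* was also used for gating. For *C1s1* they were *Rarres2* (0.974), *Abca8a* (0.935), and *Serping1* (0.927). For *C1ra* they were *Tnfaip6* (0.964), *Tnxb* (0.959), and *Prg4* (0.954), and for *Serping1* they were *Gfpt2* (0.945), *Fndc1* (0.945), and *Nid1* (0.941). For *C4b* they were *Emx2* (0.884), *C3* (0.880), and *Dnmt3l* (0.873). Groups of the same library share its depth and free RNA, and no r was computed within FAP-gated groups alone.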

How the data were processed

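Single-cell RNA of 6 TAM libraries was analysed from the deposited tables. The authors aligned reads to mm39 with Cell Ranger in Partek Flow, counted UMIs on GENCODE M30, filtered cells, and deposited log2(CPM + 1) values per cell. The commonest CPM above 0 of a cell was taken as 1 UMI to recover counts, which made 99.934% of 39334018 values whole within 0.05. Cells whose 8 myocyte genes held at least 10% of UMIs were myocytes. Cells with at least 2 myogenic genes and no *Pdgfra*, *Pecam1*, or *Ptprc* were myogenic progenitors. Others took the list with the highest mean log2(CPM + 1), at least 2 and leading by 1.5, or stayed ungated. This scoring was set after gate counts and markers, but not complement levels, were seen. States needed a lead of 1, and cycling cells 2 genes. No doublets were removed. Ratios have exact binomial, levels exact Poisson, and shares Clopper-Pearson intervals (Python 3.11.15, numpy 2.4.6, scipy 1.17.1, pandas 2.3.3, matplotlib 3.10.9). Ratios were run on simulated Poisson counts at the pool sizes of the FAP-gated cells. These counts had no clustering of UMIs in cells or mice, so the run speaks to counting error only. The genes named were the members, listed complement genes with at least 100 UMIs or whose main cell type is described, and the 3 genes most like each member. Some listed genes are counted but not reported by name here. From the second list, examples were chosen after their values were seen. The members and lists were chosen with earlier results of these data known.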

Additional observations from a re-analysis of the deposited data

Results flagged for a closer look

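The diet ratio of *C1s1* in FAP-gated cells lay on different sides of 1 on different days, at 1.28 in uninjured TAM, 0.818 at 5 dpi, and 0.919 at 14 dpi, each with a counting interval that leaves out 1. That of *C1ra* did so too, at 1.13 at 5 dpi and 0.922 at 14 dpi. Whether the diets' effect differs between days was not tested, since there is 1 library of each kind. Divided by the ratio of the median gene, *C1s1* at 5 dpi was 0.9985.

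The later runs of columns, which the comparisons do not use, also held FAP-gated cells with the 5 genes. Their summed level was 2831 CPM in the 2nd run of the uninjured control table, 2799 CPM in that of control 5 dpi, 3665 and 2728 CPM in the 2nd and 3rd runs of control 14 dpi, 1382 CPM in the 2nd run of uninjured hypothyroid, and 3251 and 1374 CPM in the 2nd and 3rd runs of hypothyroid 5 dpi. The first runs of the same 5 tables gave 3544, 1474, 2826, 3324, and 1358 CPM. All 1152 barcodes of the 2nd run of uninjured control are in the first run of hypothyroid 14 dpi, which gave 2802 CPM, and all 528 of the 2nd run of uninjured hypothyroid are in the first run of control 5 dpi, which gave 1474 CPM. The condition of the other later runs is not known.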

How the results depend on the processing

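Ratios of the summed level are given in the order hypothyroid over control in uninjured TAM, hypothyroid over control at 5 dpi, hypothyroid over control at 14 dpi, 5 dpi over uninjured in control, 14 over 5 dpi in control, 5 dpi over uninjured in hypothyroid, and 14 over 5 dpi in hypothyroid mice. They were 0.938, 0.922, 0.992, 0.416, 1.92, 0.409, and 2.06 as reported. They were 0.784, 0.69, 0.951, 0.696, 1.34, 0.613, and 1.85 with all columns of each table, 0.875, 1.62, 1.57, 0.203, 2.77, 0.376, and 2.68 as means over cells of log2(CPM + 1), 1.01, 0.938, 1.05, 0.529, 1.69, 0.492, and 1.89 with cells thinned to 2000 UMIs, and 0.971, 1.13, 1.05, 0.385, 1.98, 0.442, and 1.97 divided by the median ratio. The alternatives chosen after seeing the data gave 0.922, 1.07, 1.01, 0.83, 1.07, 0.965, and 1.01 with equal weight to Pi16 and Smoc2 states, and 0.943, 0.928, 0.944, 0.442, 1.94, 0.434, and 1.97 without cells with a *Tnmd* or *Scx* UMI. With the smallest value as 1 UMI, hypothyroid over control at 5 dpi was 0.892, hypothyroid over control at 14 dpi was 0.974, 5 dpi over uninjured in control was 0.431, and 14 over 5 dpi in control was 1.87. Without mitochondrial, ribosomal, and hemoglobin genes in the total, hypothyroid over control at 5 dpi was 0.961, 5 dpi over uninjured in control was 0.427, 5 dpi over uninjured in hypothyroid was 0.44, and 14 over 5 dpi in hypothyroid was 1.99. Without the 1% of cells highest in the summed level, hypothyroid over control at 14 dpi was 0.97. With a stricter gate, 5 dpi over uninjured in control was 0.429. The looser gate moved none beyond its counting interval. Single genes whose ratio past 2-fold turned direction were *C3* at 5 dpi over uninjured in hypothyroid mice (1.14 as a mean log, 1.31 with equal states), *C3* at 14 over 5 dpi in hypothyroid mice (0.935 with equal states), and *C4b* at 14 over 5 dpi (0.893 in control as a mean log, 0.9501 in hypothyroid mice with equal states). The count of genes past 2-fold was 168, 718, 398, 2106, 1659, 2778, and 2030, and 644, 1490, 1022, 3636, 2893, 4395, and 3065 with at least 20 UMIs, and 1827, 2043, 1564, 4467, 3417, 5216, and 3566 with at least 1 UMI. No paired analysis was possible because each group is 1 library, and no replicate could be left out. Depth limits *C4b* in uninjured cells and every gene in mural, neutrophil, and macrophage cells. The causes of these moves were not tested.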
